A study of Mus musculus with 13 samples.

Results

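The complement system was followed through 9 genes in whole-hemisphere RNA of mice fed cuprizone and of mice returned to normal chow. They were the 3 chains of C1q (C1qa, C1qb and C1qc), the C4 genes C4b and C4a, C3, the anaphylatoxin receptors C3ar1 and C5ar1, and Serping1, the inhibitor of the first complement component. The genes were chosen by name, with earlier results of these data known. Each of the 9 symbols was found among the 55401 named genes of the deposited table. All 9 passed the filter on low counts and were tested with 14985 genes in all.

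Bulk RNA-seq was performed on 1 frozen hemisphere of each of 13 male C57BL/6J mice. CTL mice (n = 5) ate normal chow and were collected at week 6. CPZ mice (n = 4) ate chow with 0.3% cuprizone, a compound that injures oligodendrocytes and strips myelin, and were collected at week 4. RCV mice (n = 4) ate the same chow for 4 weeks, then normal chow for 2 weeks, and were collected at week 6. The study's methods on tissue collection state fewer mice in each group than the libraries deposited here. The legend of its design figure gives 13 samples (5, 4 and 4), all with bulk RNA-seq. All 13 libraries were used, each taken as 1 mouse. The labels give an age of 6 to 8 weeks and the study's methods about 10 weeks. CPZ differed from both other groups in the week of collection as well as in diet at collection, and these cannot be told apart. The libraries held 4605100 to 8197289 estimated counts (median 6723619).

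Complement is a cascade of plasma and tissue proteins that tags surfaces and debris for uptake. In the classical pathway, C1q binds a target and its partner proteases C1r and C1s cleave C4 and C2, which form the enzyme that splits C3. Fragments of C3 left on the target are read by the integrins CR3 and CR4 on phagocytes, and the small fragments C3a and C5a signal through C3ar1 and C5ar1. In the brain, microglia are the main source of C1q, C4 is made by astrocytes and other glia, and C1q and C3 are known for marking synapses that microglia engulf.

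The C1q chains are encoded side by side on the minus strand of chromosome 4 of mm10, with C1qb at chr4:136880129-136886187, C1qc at chr4:136889804-136893065 and C1qa at chr4:136895917-136898803. Sequences just before the annotated starts of C1qb and C1qc are shown because these neighbouring genes moved together across libraries and their windows share a string of letters. They are from RefSeq promoter windows of GRCm38.p6, read 5′ to 3′ on the minus strand, with the string ACTTCCT, the reverse complement of AGGAAGT, in capitals. AGGAAGT is a form of the core recognised by ETS family factors such as PU.1, and it was chosen after the sequences had been seen.

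C1qb, chr4:136886201-136886300: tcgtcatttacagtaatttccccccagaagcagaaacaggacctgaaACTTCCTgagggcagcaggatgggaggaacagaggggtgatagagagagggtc
C1qc, chr4:136893066-136893164: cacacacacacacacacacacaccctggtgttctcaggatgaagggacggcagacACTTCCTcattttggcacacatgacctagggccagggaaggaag

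The string lay 53 bases before the RefSeq start in C1qb and 195 bases before it in C1qc. Of the 9 genes, 5 had a promoter window in the table. The string was found on either strand in 3 of these 5, namely C1qb, C1qc and C5ar1, and not in the windows of C3 and C3ar1. Over all 32851 windows of 300 bases (250 before the start and 50 after it), 9.35% held it. The string was chosen after sequences of these genes had been seen, so 3 of 5 beside this share is not a test.

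Across the 9 genes, 8 were higher in CPZ than in CTL and none was lower at an adjusted p below 0.05 (edgeR quasi-likelihood test, Benjamini-Hochberg over all genes tested). Of all genes tested, 10.2% were called in this comparison and 7.66% were called higher and 2.50% lower in CPZ. The median log2 fold change of the 9 genes was 2.70, beside -0.02 over all genes. Since the 9 genes were chosen with earlier results known, the values over all genes are given as a description and not as a test. In RCV against CTL, 2 of the 9 genes, C4b and C3ar1, were called higher, beside 0.374% of all genes called and 0.360% called higher and 0.0133% lower. The median log2 fold change of the 9 genes was 1.07 in that comparison. In CPZ against RCV, 5 genes were called higher in CPZ (C1qa, C1qb, C1qc, C3ar1 and C5ar1), where 7.01% of all genes were called, 5.13% higher and 1.88% lower, and the median of the 9 was 1.68. The libraries lay apart without overlap, higher in the first group in CPM, for 8, 6 and 5 of the 9 genes in these comparisons, beside 8.25%, 2.21% and 8.26% of all genes. The comparisons share libraries, so their values are given side by side and are not independent of each other.

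**Figure D1:**
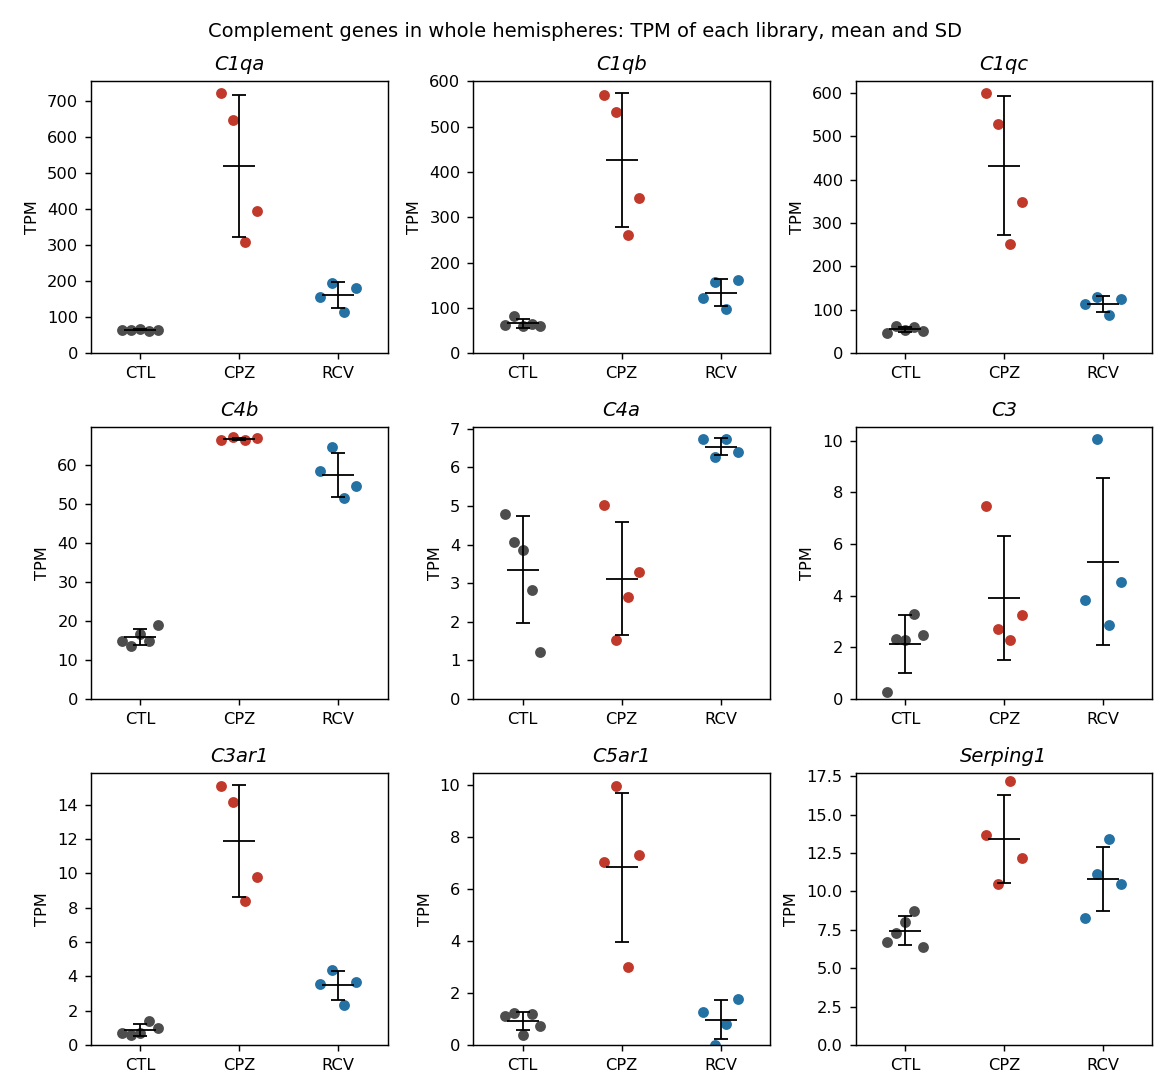
TPM (a level scaled to transcript length and library size) of the 9 complement genes on a linear axis from 0, with a point for each library and bars for the mean ± SD of CTL (n = 5), CPZ (n = 4) and RCV (n = 4). In RCV, the means of the C1q chains were between 26.5% and 31.4% of their CPZ means, and the RCV mean of C4b was 86.0% of its CPZ mean.

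C1q was by far the most abundant of these components per transcript length. C1qa, the A chain, stood at 65.4, 64.8, 67.5, 63.2 and 65.1 TPM in the CTL libraries, at 721, 647, 309.6 and 395 in CPZ and at 155, 196, 113.5 and 179.9 in RCV. No CTL library overlapped either other group, and every CPZ library lay above every RCV library. The group means were 65.2 ± 1.54 TPM (SD, n = 5) for CTL, 518 ± 197 (n = 4) for CPZ and 161 ± 35.9 (n = 4) for RCV, so that the mean was 7.95-fold higher in CPZ and 2.47-fold higher in RCV than in CTL. CPZ replicates 1 and 2 were the highest, and the coefficient of variation of the CPZ group was 38.0%.

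C1qb, the B chain, stood at 62.25, 82.7, 60.9, 65.6 and 59.6 TPM in CTL, at 569.9, 532, 262 and 343 in CPZ and at 121, 157, 97.1 and 161 in RCV. C1qc, the C chain, stood at 47.7, 62.9, 54.0, 59.6 and 51.0 TPM in CTL, at 599, 528, 251 and 348 in CPZ and at 113, 131, 89.25 and 125 in RCV. The groups kept the order CTL, RCV, CPZ without overlap in both chains, and CPZ replicates 1 and 2 were again the highest. Summed over the 3 chains, C1q came to 186 ± 14.5 TPM in CTL (SD, n = 5), 1377 ± 505 in CPZ (n = 4) and 409.6 ± 83.9 in RCV (n = 4).

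The log2 fold change of CPZ against CTL was 3.01 ± 0.24 (SE) for C1qa, with an adjusted p of 6.25e-06. It was 2.70 ± 0.23 for C1qb (adjusted p = 9.92e-06) and 2.99 ± 0.23 for C1qc (adjusted p = 4.42e-06). From CPZ to RCV the chains fell: the log2 fold changes of CPZ against RCV were 1.69 ± 0.25 (adjusted p = 0.00149), 1.68 ± 0.24 (adjusted p = 0.0014) and 1.92 ± 0.24 (adjusted p = 0.000567) for C1qa, C1qb and C1qc. All 15 microglia markers were also higher in CPZ than in CTL (median log2 fold change 1.83) and higher in CPZ than in RCV (median 1.24). Their summed level was 352.59 to 434.73 TPM in CTL, 1176 to 2376 in CPZ and 538.2 to 655.76 in RCV. In whole tissue, more cells of a type and more RNA per cell cannot be told apart.

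In RCV against CTL the C1q chains did not pass the threshold, at log2 fold changes of 1.32 ± 0.25 for C1qa (adjusted p = 0.0556), 1.02 ± 0.24 for C1qb (adjusted p = 0.150) and 1.07 ± 0.24 for C1qc (adjusted p = 0.122). All RCV libraries lay above all CTL libraries in TPM and CPM. The same held for C4b and C3ar1, and for C3 in CPM but not in TPM. The main fit shared 1 estimate of the spread of each gene over all 3 groups, CPZ included. The coefficient of variation of C1qa in CPM was 3.46% in CTL, 37.5% in CPZ and 21.6% in RCV. Fitted on RCV and CTL alone, all 3 chains were called (adjusted p = 0.000805, 0.0112 and 0.00142, edgeR). DESeq2 called all 3 as well (adjusted p = 4.71e-07, 0.000421 and 0.000129). Over all alternatives the adjusted p ran from 4.71e-07 to 0.241 for C1qa, 0.000421 to 0.418 for C1qb and 0.000129 to 0.373 for C1qc. The part of the CPZ spread in these calls was not tested. All 3 chains passed without CPZ replicate 3 (adjusted p = 0.0075, 0.0304 and 0.00778), C1qa and C1qc also without CPZ replicate 1 (0.0237 and 0.0481), and C1qa without RCV replicate 3 (0.0433).

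The proportions among the chains were compared as a description. The TPM of C1qc relative to C1qb was 0.835 ± 0.0684 in CTL (SD, n = 5), 1.00 ± 0.0390 in CPZ (n = 4) and 0.865 ± 0.0732 in RCV (n = 4), and every CPZ library lay above every library of the other groups. C1qa relative to C1qb was 0.999 ± 0.133 in CTL, 1.20 ± 0.0481 in CPZ and 1.20 ± 0.0748 in RCV, and here both treated groups lay above all CTL libraries. On the log2-CPM scale (counts scaled to library size by TMM), the 3 pairs of chains correlated across the 13 libraries at a Pearson r of 0.992 to 0.996. After the group means were removed, r was 0.924 to 0.958, a description over libraries that share depth and cell content among genes.

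**Figure D2:**
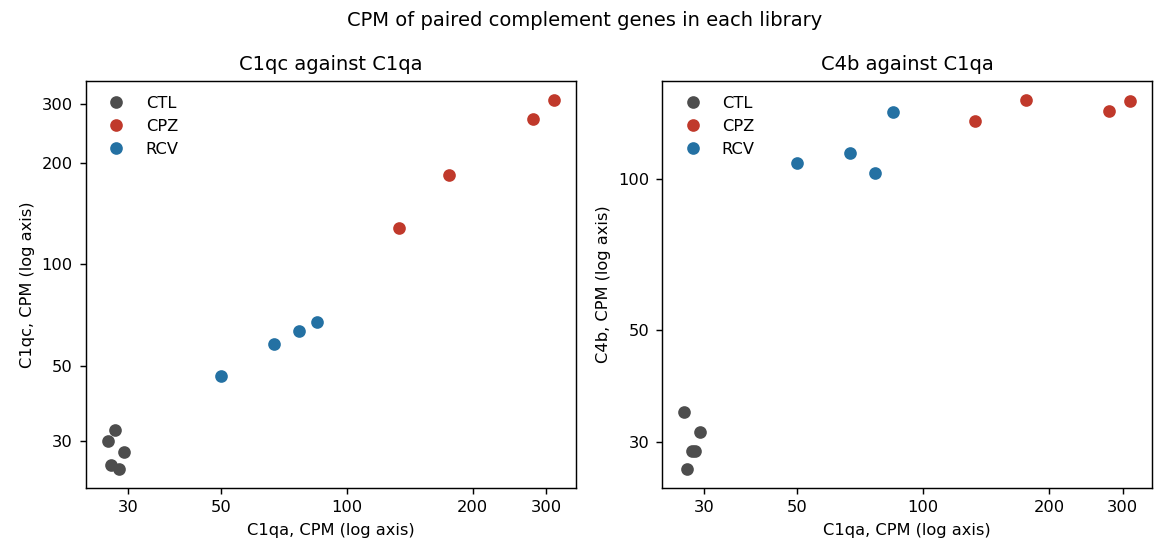
CPM of C1qc (left) and of C4b (right) against CPM of C1qa, with 1 point per library and both axes logarithmic. C1qc followed C1qa through all 3 groups (r = 0.993), while C4b stayed between 130 and 144 CPM in CPZ libraries whose C1qa ran from 133 to 313 CPM.

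C4 showed another course. C4b lies at chr17:34728380-34743882 and C4a, its near-identical copy that is annotated as a processed transcript in GENCODE M21, at chr17:34809092-34823464, both on the minus strand. The coding stretch of C4b-201 aligned with C4a-201 over 5202 bases at 96.2% identity. Of the 50-base windows of C4b-201, 35.2% also occur in a C4a transcript, and a single 50-base read from these could not be assigned by its sequence alone. The study's reads were paired, 50 bases each, and the other read of a pair may fall where the copies differ. The share of pairs left ambiguous was not computed. The stretch below is shown because it tells the copies apart, with the 13 differing bases in capitals (bases 2761 to 2820 of C4b-201 and 2745 to 2804 of C4a-201).

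C4b: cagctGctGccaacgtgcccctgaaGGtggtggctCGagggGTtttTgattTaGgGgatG
C4a: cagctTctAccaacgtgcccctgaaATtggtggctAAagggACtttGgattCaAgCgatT

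C4b, which encodes the C4 cleaved by C1s, stood at 14.9, 13.7, 16.8, 14.9 and 18.9 TPM in CTL, at 66.4, 67.1, 66.4 and 66.8 in CPZ and at 58.4, 64.7, 51.6 and 54.7 in RCV. CTL stood far below the other groups, and the CPZ libraries were nearly equal. RCV lay close under CPZ, with no overlap in TPM but with overlap in log2-CPM. The log2 fold change was 2.21 ± 0.09 (SE) in CPZ against CTL (adjusted p = 3.58e-10) and 1.94 ± 0.09 in RCV against CTL (adjusted p = 4.68e-09). Between CPZ and RCV it was 0.27 ± 0.09, which did not pass (adjusted p = 0.0746). It passed there with no filter on counts (adjusted p = 0.0306) and without RCV replicate 2 (adjusted p = 0.00966), and its adjusted p over the alternatives ran from 0.00966 to 0.424.

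The spread of C4b differed from that of C1q. Its coefficient of variation in CPM was 4.49% over the CPZ libraries, where that of C1qa was 37.5%. The TPM ratio of C4b to C1qa was 0.212 to 0.290 in CTL, 0.0921 to 0.214 in CPZ and 0.304 to 0.455 in RCV, so that all RCV libraries lay above all others. C4b and C1qa correlated at r = 0.872 across the 13 libraries and at 0.298 within groups. The gene most like C4b over the 13 libraries was Gfap, the intermediate filament of reactive astrocytes (r = 0.983, and 0.793 within groups). Itgax (0.975) and Clec7a (0.973) followed, with lower values within groups (0.397 and 0.451). Gfap was itself called in all 3 comparisons, with log2 fold changes of 2.43 in CPZ and 1.80 in RCV against CTL and of 0.63 in CPZ against RCV. Of 10 astrocyte markers, 5 were called higher in CPZ and 2 in RCV than in CTL, and their summed level was 1882 to 2290 TPM in CTL, 2562 to 3052 in CPZ and 2361 to 2636 in RCV. The part of these markers in the course of C4b was not tested.

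C4a was scarce, at 4.58 to 27.3 estimated counts in CTL, 7.76 to 16.6 in CPZ and 11.2 to 21.3 in RCV. The log2 fold changes were -0.37 ± 0.39 (adjusted p = 0.658) in CPZ against CTL, 0.27 ± 0.38 (adjusted p = 0.989) in RCV against CTL and -0.64 ± 0.41 (adjusted p = 0.440) in CPZ against RCV. In TPM it read 4.80, 4.06, 3.86, 2.83 and 1.21 in CTL, 5.02, 1.53, 2.64 and 3.30 in CPZ and 6.73, 6.28, 6.74 and 6.41 in RCV. The RCV libraries thus lay above all others in TPM although their counts overlapped, and the estimates of C4a depend on how shared reads and transcript lengths were assigned. C4a held 7.03% ± 2.89 of the summed C4 counts in CTL (SD, n = 5), 1.27% ± 0.411 in CPZ (n = 4) and 2.60% ± 1.30 in RCV (n = 4). With both genes summed, the log2 fold changes of C4 were 2.12, 1.86 and 0.25, and the calls were those of C4b alone.

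C3, the protein on which all activation routes converge, was low in a whole hemisphere. It held 5, 17, 37, 24 and 4 estimated counts in CTL, 77, 56, 41 and 65 in CPZ and 66, 74, 34 and 28 in RCV. Both treated groups were above CTL in CPM without overlap, although CTL replicate 3 (5.671 CPM) was all but level with the lowest CPZ library (5.673 CPM). The log2 fold change was 1.57 ± 0.45 (SE) in CPZ against CTL, just past the threshold (adjusted p = 0.0413). It was 1.69 ± 0.46 in RCV against CTL (adjusted p = 0.227) and -0.12 ± 0.43 in CPZ against RCV (adjusted p = 0.926). The call in CPZ was lost in 6 of the 10 other settings in which C3 was tested, and without any one of CTL replicates 1, 2, 4 and 5, CPZ replicates 1, 2 and 4 and RCV replicate 1, with adjusted p over all alternatives from 0.00652 to 0.595. In TPM, C3 overlapped between all groups, with 0.27 to 3.30 in CTL, 2.27 to 7.46 in CPZ and 2.88 to 10.04 in RCV. CTL replicates 1 and 5 held 5 and 4 counts but read 0.27 and 2.47 TPM. The gene most like C3 was Fxyd1 (r = 0.930, and 0.912 within groups). C3 lies at chr17:57203970-57228136 on the minus strand, with the microRNA gene Mir6978 inside it and no shared exon bases.

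The anaphylatoxin receptors had the largest log2 fold changes of the 9 genes in CPZ against CTL. C3ar1, the receptor for C3a (chr6:122847138-122856161, minus strand), stood at 0.72, 0.58, 0.67, 1.42 and 1.00 TPM in CTL, at 15.1, 14.2, 8.39 and 9.81 in CPZ and at 3.57, 4.38, 2.34 and 3.67 in RCV. The 3 groups were separate, with RCV between the others, and the CPZ mean was 13.5-fold and the RCV mean 3.97-fold the CTL mean. C3ar1 was the one gene of the 9 that was called in all 3 comparisons, with log2 fold changes of 3.79 ± 0.25 (adjusted p = 2.39e-07) in CPZ against CTL, 2.03 ± 0.29 (adjusted p = 0.00511) in RCV against CTL and 1.76 ± 0.23 (adjusted p = 0.000352) in CPZ against RCV. The call in RCV against CTL was lost with limma-voom (adjusted p = 0.0907) and on log2(TPM + 1) without a filter (adjusted p = 0.0505), with adjusted p over all alternatives from 3.15e-08 to 0.0907.

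C5ar1, the receptor for C5a (chr7:16246743-16259540, minus strand), held 3, 2, 3, 5 and 3 estimated counts in CTL, 48, 56, 25 and 41 in CPZ and 5, 0, 4 and 3 in RCV. CPZ stood apart from both other groups, and RCV and CTL overlapped at 5 counts or fewer. The log2 fold change was 3.46 ± 0.39 (SE) in CPZ against CTL (adjusted p = 1.53e-05) and 3.37 ± 0.44 in CPZ against RCV (adjusted p = 0.000351). In RCV against CTL it was 0.10 ± 0.59 (adjusted p = 0.998), and at these counts a small difference between RCV and CTL could not be seen. The sign of this last value turned under several settings.

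Serping1 encodes C1 inhibitor, which blocks the proteases C1r and C1s (chr2:84765387-84775444, minus strand). It stood at 6.72, 7.32, 8.01, 8.75 and 6.38 TPM in CTL, at 13.7, 10.5, 17.2 and 12.2 in CPZ and at 8.26, 11.1, 13.4 and 10.5 in RCV. Every CPZ library was above every CTL library, and RCV overlapped both. It rose by a log2 fold change of 0.76 ± 0.18 (SE) in CPZ against CTL (adjusted p = 0.00918). The values were 0.56 ± 0.18 (adjusted p = 0.389) in RCV against CTL and 0.20 ± 0.18 (adjusted p = 0.620) in CPZ against RCV. CPZ replicate 3, lowest of the CPZ libraries for C1qa, C1qb, C1qc, C3ar1 and C5ar1, was the highest for Serping1.

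**Figure D3:**
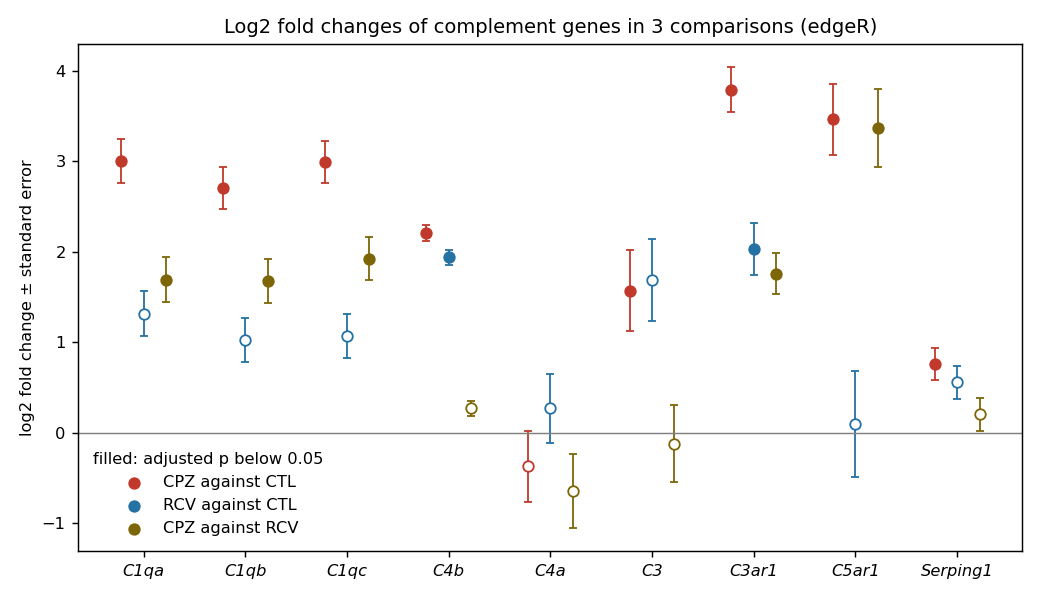
Log2 fold changes ± SE of the 9 genes (edgeR) in the 3 comparisons, with filled points for an adjusted p below 0.05. C4b and C3ar1 are the filled points in RCV against CTL, at 1.94 and 2.03.

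Each gene was next compared with the microglia markers of the same library, as log2-CPM of the gene minus the mean log2-CPM of the 15 markers (which included Csf1r, Tmem119, P2ry12 and Trem2). The question was whether a complement gene moved by another amount than the marker list. Differences were tested with exact two-sided permutation tests over libraries and adjusted over the 9 genes, with a smallest possible raw p of 0.0159 for 4 against 5 and 0.0286 for 4 against 4. The markers did not move alike among themselves. In CPZ against CTL their log2 fold changes ran from 0.75 for Sall1 to 3.68 for Ly86, with Trem2 at 3.04 and P2ry12 at 0.97. The C1q chains, at 2.70 to 3.01, lay inside that range. A difference from the mean of the list thus does not set them apart from each marker.

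In CPZ against CTL, C3ar1 rose by 1.71 more than the markers, C1qa by 1.02, C1qc by 1.01, C5ar1 by 0.97 and C1qb by 0.74 (log2, adjusted p = 0.0238 for each, exact permutation test, no overlap between groups). C4b differed from the marker list by 0.31 (adjusted p = 0.214) and C3 by -0.11 (adjusted p = 0.810, exact permutation test). C4a and Serping1 fell behind the list, at -2.13 (adjusted p = 0.0238) and -1.17 (adjusted p = 0.0408, exact permutation test). The mean marker score itself rose from 4.19 in CTL to 6.08 in CPZ, so a gene that stays level has a negative difference. In their own log2 fold changes C4a was not called (-0.37) and Serping1 was called higher in CPZ (0.76). On log2(TPM + 1) the value of C5ar1 was 0.09 and did not pass (adjusted p = 0.667, exact permutation test), and against the median of the markers Serping1 did not pass (adjusted p = 0.0612).

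In RCV against CTL, C4b lay 1.42 above the markers, C3ar1 1.38, C1qa 0.78, C1qc 0.56 and C1qb 0.51 (adjusted p = 0.0286 for each, exact permutation test, no overlap). The differences were 1.37 for C3 (adjusted p = 0.0952), -0.56 for C5ar1 (adjusted p = 0.408), -0.17 for C4a (adjusted p = 0.768) and 0.03 for Serping1 (adjusted p = 0.921, exact permutation tests). None of the 15 markers was called in RCV against CTL, where their median log2 fold change was 0.48. The markers ran there from -0.06 for Tmem119 to 1.32 for Ly86, with Trem2 at 1.27. The C1q chains, at 1.02 to 1.32, were not called either and lay inside that range. The result for C1qb did not pass against Csf1r alone or on log2(TPM + 1) (adjusted p = 0.0571 for each, exact permutation test).

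In CPZ against RCV none of the 9 differences from the marker list passed after adjustment. C4b (-1.12), C4a (-1.97), C3 (-1.48), C1qc (0.45) and C5ar1 (1.53) did not overlap between the groups and had the smallest raw p the design allows (adjusted p = 0.0514 for each, exact permutation test). With 4 against 4 libraries a gene can pass only when enough of the 9 reach that raw p together. Here too few reached it for any to pass. C1qa (0.24) and C1qb (0.24) overlapped (adjusted p = 0.114 for each, exact permutation test). With the median of the markers as the reference 6 genes passed, and with Csf1r alone 8.

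**Figure D4:**
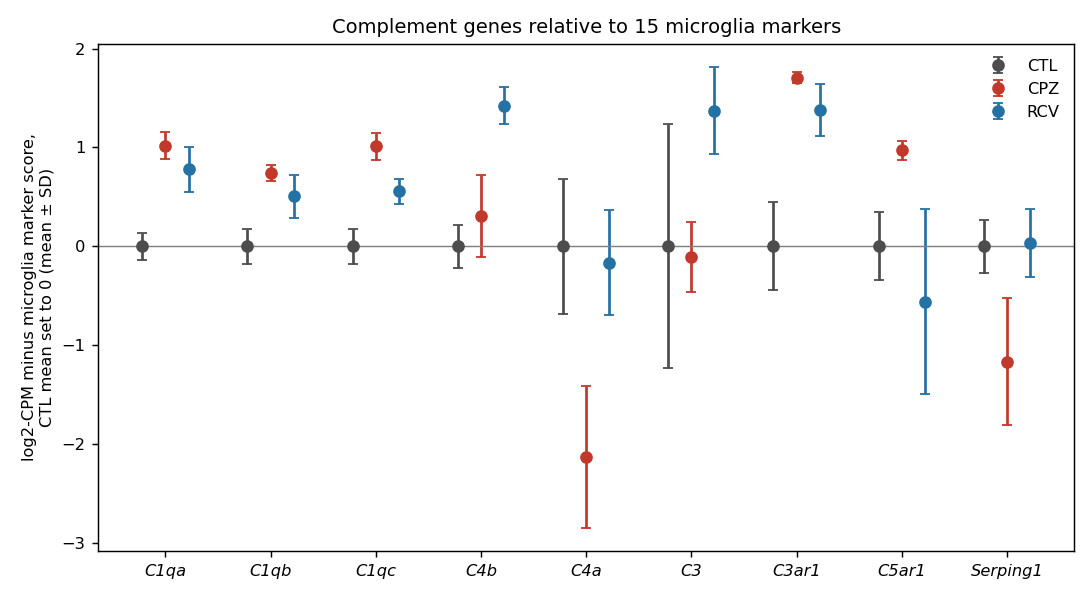
Log2-CPM of each gene minus the mean log2-CPM of 15 microglia markers, as group mean ± SD with the CTL mean set to 0 (CTL n = 5, CPZ and RCV n = 4). C1qa, C1qb, C1qc and C3ar1 lie above 0 in both treated groups, C5ar1 in CPZ, and C4b lies at 0.31 in CPZ and 1.42 in RCV.

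Genes most like each member differed between members. Among 14135 genes, those closest to C1qa over the 13 libraries were Cd300c2, Ctss and Mpeg1 (r = 0.996, 0.995 and 0.995). For C1qb they were Tyrobp, Csf1r and Trem2 (all 0.996), and for C1qc Csf1r, Ly86 and Ctsz (0.998, 0.997 and 0.995). C3ar1 was closest to Cst7, Ccl6 and AU020206 (0.982, 0.980 and 0.980), and C5ar1 to Arhgap4, Pcna and Slc7a11 (0.942, 0.941 and 0.940). Next to Fxyd1, C3 was closest to Sumf1 (0.895) and Clu (0.873). Serping1 was closest to Cyp4v3, Smo and Mdk (0.897, 0.871 and 0.868), and C4a to Ssbp2, Stk35 and Leng9 (0.860, 0.858 and 0.844). These are descriptions over libraries of 3 groups, in which any gene with the same group means scores high.

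The rest of the pathway was read from a list of 54 other complement genes, of which 28 passed the filter. In CPZ against CTL, 5 of the 28 were called higher and 2 lower, with a median log2 fold change of 0.14. Of all genes, 7.66% were called higher and 2.50% lower there. In RCV against CTL, 2 were called higher, with a median of 0.03, beside 0.360% of all genes called higher and 0.0133% lower. In CPZ against RCV, 3 were called higher and 2 lower in CPZ, with a median of 0.05. The shares of all genes there were 5.13% higher and 1.88% lower. In the main fit the called genes were receptors and regulators. None of the 6 tested genes of the classical, lectin and alternative routes was called in any comparison of that fit. Colec12, a gene of the lectin list, had a log2 fold change of 0.50 ± 0.16 in CPZ against RCV without overlap (adjusted p = 0.0688, edgeR). With no filter on counts it was called higher there (log2 fold change 0.53, adjusted p = 0.0439, edgeR).

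The classical proteases beside C4 and C3, Cfb of the alternative pathway and the terminal components were low. C1ra and C1s1, the partner proteases of C1q, had log2 fold changes of 0.51 ± 0.28 (adjusted p = 0.325) and 0.65 ± 0.30 (adjusted p = 0.221) in CPZ against CTL, on 13 to 30 and 8.72 to 15 estimated counts in CTL. C2, the partner of C4, had 0.61 ± 0.35 (adjusted p = 0.357). Cfb, the alternative pathway counterpart of C2, did not pass the filter and was not tested, with 0 to 1.61 counts in CTL, 5 to 12 in CPZ and 0.46 to 4.8 in RCV. All CPZ libraries lay above all CTL libraries, and with no filter on counts Cfb was called higher in CPZ than in CTL (log2 fold change 2.68, adjusted p = 0.00448) but not than in RCV (1.71, adjusted p = 0.156). None of the 7 genes of the terminal pathway (Hc, which encodes C5, C6, C7, C8a, C8b, C8g and C9) passed the filter, and C9 was at 0 in every library. Hc held at most 7 counts in any library. With so few counts, small differences in the terminal genes could not be seen.

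The integrin receptors for C3 fragments had the largest log2 fold changes of the list in CPZ against CTL. Itgax, the alpha chain of CR4, held 3, 4, 1, 4 and 0 counts in CTL, 279, 158, 220 and 191 in CPZ and 79.9, 124, 32 and 103 in RCV. Its log2 fold change was 6.21 ± 0.52 (adjusted p = 5.44e-06) in CPZ against CTL and 5.28 ± 0.57 (adjusted p = 0.00194) in RCV against CTL, the latter lost with limma-voom (adjusted p = 0.155, and 6.22e-20 to 0.155 over all alternatives). Itgam, the alpha chain of CR3, rose by 2.57 ± 0.22 (adjusted p = 8.52e-06) and read 0.40 ± 0.24 (adjusted p = 0.918) in RCV against CTL. Itgb2, the beta chain that both receptors share, rose by 3.31 ± 0.25 (adjusted p = 2e-06) and read 1.26 ± 0.29 (adjusted p = 0.122) in RCV against CTL. Both Itgam and Itgb2 were lower in RCV than in CPZ, with CPZ against RCV at 2.17 (adjusted p = 0.000351) and 2.04 (adjusted p = 0.000418), while Itgax had 0.93 there (adjusted p = 0.137). C5ar2, the second C5a receptor, read 0.67 ± 0.40 in CPZ against CTL (adjusted p = 0.368).

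Among regulators, Sez6l2 was called lower in CPZ than in CTL (-0.51 ± 0.05, adjusted p = 9.7e-06) and than in RCV (-0.42 ± 0.06, adjusted p = 0.000447). Susd4 was lower in both as well (-0.25 ± 0.06, adjusted p = 0.0135, and -0.25 ± 0.07, adjusted p = 0.0295). Cr1l, the rodent regulator Crry, was higher in both (0.38 ± 0.11, adjusted p = 0.0375, and 0.49 ± 0.12, adjusted p = 0.0191). Clu, the secreted chaperone clusterin that binds the terminal complex, had 0.21 ± 0.06 in CPZ against CTL (adjusted p = 0.0496) and 0.31 ± 0.06 in RCV against CTL (adjusted p = 0.0479).

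The calls of Clu, Cr1l and Susd4 depended on the setting and on single libraries. In the 3 TPM settings Clu and Cr1l lost both of their calls (adjusted p of 0.0765 to 0.154 for Clu and 0.209 to 0.322 for Cr1l), and Susd4 lost the call in CPZ against RCV (0.0868 to 0.127), as it did with no filter on counts (0.0966). Clu also lost both with the 2 groups alone (0.0594 and 0.0956), the first with DESeq2 size factors (0.0511), and the second with limma-voom (0.0744) and with at least 10 counts in every library (0.0778). Clu lost its call in CPZ against CTL without any one library other than CTL replicate 4 and RCV replicate 2, and in RCV against CTL without any one other than CTL replicate 4 and CPZ replicate 1 (adjusted p of up to 0.164 and 0.191). Cr1l lost the first of its calls without CTL replicate 1, 2 or 4 or CPZ replicate 1 or 3 (up to 0.149) and the second without CPZ replicate 1 or RCV replicate 1 (0.0694 and 0.075). Susd4 lost the first without CPZ replicate 1 or 3 (0.0656 and 0.0647) and the second without either of these or RCV replicate 1, 3 or 4 (up to 0.119).

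**Figure D5:**
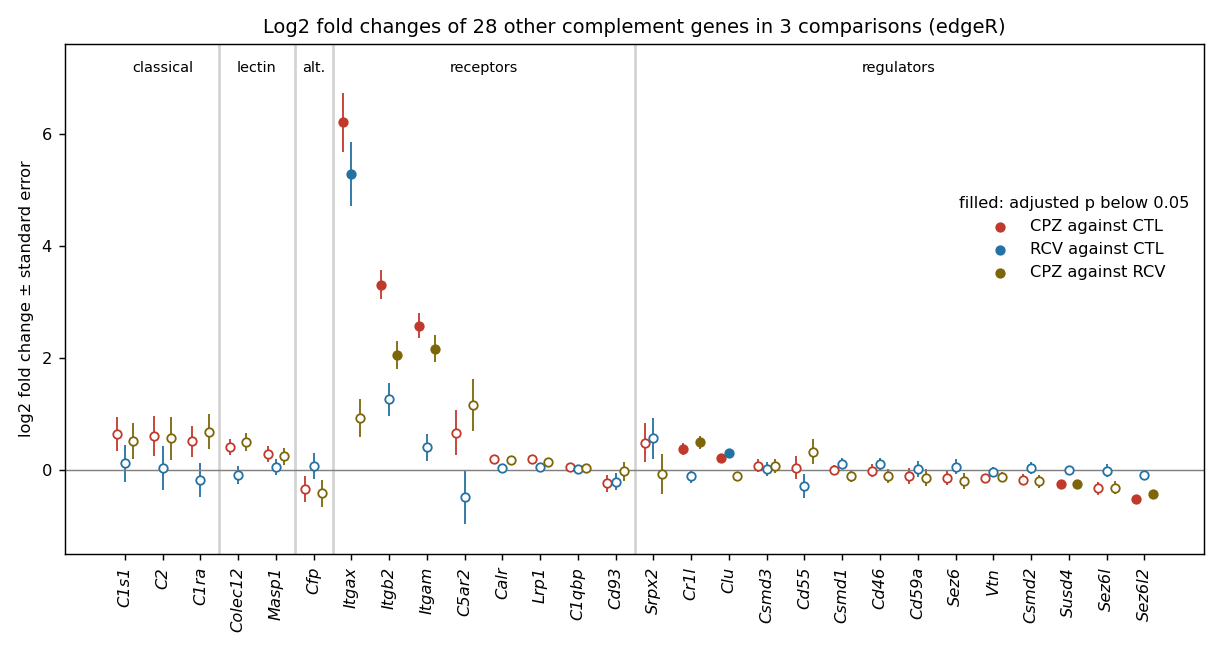
Log2 fold changes ± SE (edgeR) of the 28 other complement genes that passed the filter, by pathway branch, in the 3 comparisons, with filled points for an adjusted p below 0.05. Itgax stands highest at 6.21 and 5.28, and most other genes lie near 0.

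Markers of other cells that could hold complement RNA were read in the same fit. Of 8 monocyte and neutrophil markers none passed the filter, so none was tested. Their summed level varied between libraries, from 1.22 to 61.6 TPM in CTL, 0.14 to 5.41 in CPZ and 4.09 to 66.8 in RCV. Of 7 border macrophage markers 2 passed and none was called, with summed levels of 5.84 to 10.3 TPM in CTL, 5.38 to 11.4 in CPZ and 7.51 to 13.1 in RCV. All 10 markers of mature oligodendrocytes were lower in CPZ than in CTL and none was called in RCV against CTL. Choroid plexus markers varied between libraries of the same group, from 17.7 to 2683 TPM in RCV, with none called. The part of these lists in the complement values was not tested.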

How the data were processed

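The authors deposited unscaled estimated counts for each gene, TPM values and a gene annotation. Libraries were prepared with the Kapa mRNA HyperPrep Kit and processed with RNASequest, and the submitters' processing notes name STAR, RSEM and mm10. No source used here gives tool versions or the strand setting. Of the deposited estimated counts, 4.45% were not whole, and all were rounded. The 92 rows without a gene name held 0 counts. Groups came from the treatment field of the labels. RCV libraries carry titles starting with Veh, and no source used here says whether their mice received a vehicle. Gene positions are from GENCODE M21 (98.1% of identifiers matched), and promoter windows from RefSeq.

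Genes were filtered with filterByExpr, scaled by TMM and tested with edgeR 4.0.16 (robust quasi-likelihood F test, 1 fit of all 13 libraries, no covariate, Benjamini-Hochberg over 14985 genes, threshold 0.05). Log2-CPM used a prior count of 2. P-values measure the spread between libraries, each taken as 1 mouse. Within groups, counts differed more than counting error (chi-square over degrees of freedom, 4.23 to 16.3). The fit was tested on simulated data. DESeq2 1.42.0 and limma 3.58.1 served as alternatives, as did filters, a pseudocount of 1 or 0.1 on TPM, samples in the fit, C4a and C4b summed, and each library left out in turn.

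Named are all 9 members, other complement genes called in at least 1 comparison and up to 12 others for their role. Colec12, called with no filter on counts, is named as well. So are the 3 genes most correlated with each member at a mean log2-CPM of at least 1. The members, lists and tests were chosen with earlier results of these data known. One gene of the list of other complement genes is not reported here.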

Additional observations from a re-analysis of the deposited data

Results flagged for a closer look

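Of 84 groups of 4 or 5 libraries listed for a search for a library far from the others, 3 held one, where chance gives about 1 in 20. The 84 include the groups of the monocyte and neutrophil marker score, which had no values and could not be flagged. C5ar1 stood at a log2-CPM of -1.72 in RCV replicate 2, which held 0 counts, against -0.07 to 0.10 in the other RCV libraries. The mean log2-CPM of mature oligodendrocyte markers was 6.47 in CPZ replicate 4, against 5.80 to 5.91 in the other CPZ libraries, and that of oligodendrocyte precursor markers was 5.62 in CPZ replicate 2, against 5.53 to 5.54.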

How the results depend on the processing

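Of 281 fold changes of the 9 genes under other settings and 351 with a library left out, 4 and 6 changed sign, all in comparisons the gene did not pass. For C5ar1 in RCV against CTL the value was -0.32 with limma-voom, -0.044 on log2(TPM + 1) with or without a filter, -0.47 on log2(TPM + 0.1), and -0.15 to 0.53 with a library left out (below 0 without CTL replicate 2, RCV replicate 1 or RCV replicate 3). With a library left out, C4a in RCV against CTL ran from -0.016 (without RCV replicate 4) to 0.57, and C3 in CPZ against RCV from -0.30 to 0.083 (above 0 without CPZ replicate 3 or RCV replicate 2). Relative to the median of the microglia markers, C3 in CPZ against CTL was 0.090 and C4a in RCV against CTL 0.061. On log2(TPM + 1), C4a was 0.38 and Serping1 -0.0071 in RCV against CTL, and Serping1 was -0.15 relative to Csf1r alone.

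Counts of called members moved as follows. With at least 10 counts in every library, which removes low genes before the test, 5 of the 9 were called in CPZ and 1 in RCV against CTL, and 3 in CPZ against RCV. In RCV against CTL the count was 6 with DESeq2, 1 with limma-voom, 1 on log2(TPM + 1) without a filter and 5 with the 2 groups alone, and 2 to 5 with a library left out (4 without CPZ replicate 1, 5 without CPZ replicate 3). Relative to the microglia markers in CPZ against RCV, 6 passed with the median and 8 with Csf1r alone. Over all genes, the calls in RCV against CTL moved as well, from 56 to 131 with DESeq2, 12 with limma-voom, 82 with the 2 groups alone, 22 on log2(TPM + 1) without a filter and 20 with at least 10 counts. The cause was not tested.

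For the other complement genes, the 2 calls in RCV against CTL were 0 with limma-voom and with at least 10 counts, 1 in each TPM setting and 1 to 2 with a library left out. The 7 calls in CPZ against CTL were 10 with no filter on counts, 9 with DESeq2, 5 in each TPM setting and 4 to 7 with a library left out (4 without CPZ replicate 1). In CPZ against RCV the 5 calls were 3 in each TPM setting and 3 to 5 with a library left out (3 without CPZ replicate 1 or RCV replicate 1).

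Replicate numbers did not pair the libraries, with r of -0.199 to 0.136 over 12 same-numbered pairs of libraries. With the replicate block, genes called over the whole table were 1172, 42 and 755 in place of 1522, 56 and 1050, the other complement genes called in CPZ against CTL were 4 in place of 7, and C3 in CPZ against CTL had an adjusted p of 0.181. Under the block, Clu (adjusted p = 0.184 in CPZ and 0.263 in RCV against CTL), Cr1l in CPZ against CTL (0.0667) and Susd4 in CPZ against CTL (0.083) and RCV (0.0785) lost their calls. Depth limits C3, C4a, C5ar1 and most proteases of the cascade, which held few counts per library.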
